A study of Mus musculus with 24 samples.

Results

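The cytosolic ribosomal protein genes encode the protein part of the ribosome that translates nuclear mRNAs. Genes named Rps, and Rpsa, encode proteins of the small subunit, which reads the mRNA, and genes named Rpl or Rplp encode proteins of the large subunit, which forms peptide bonds. Many of their mRNAs open with a run of pyrimidines at the cap, the 5′ terminal oligopyrimidine or TOP motif, through which translation of the whole family is tuned by growth signalling via mTORC1. The family is known for steady and very abundant mRNAs, and several members have served as reference genes in lung expression work.

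Members were the genes with a probe set that the platform annotation assigns to a single symbol of this family, and each gene was represented by its probe set with the highest mean signal. This gave 41 genes, 22 of the large and 19 of the small subunit, out of 12393 genes with a single symbol. Of these 41, 40 had signal above the filter on low values described in the processing notes, and Rpl14 did not (mean signal 91.7). A further 27 family genes, among them Rpl3, Rpl5, Rpl10 and Rplp1, were represented only by probe sets that also name another gene, and they were not measured under this rule. Ribosomal protein genes have many processed pseudogenes in the mouse genome. Of the 40 probe sets tested, 14 carry the suffix x_at and 1 carries s_at, which mark probes shared with other transcripts, so a value may include related sequences. A further 13 carry a_at, which marks probes shared between transcripts of the same gene.

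Expression was measured on 24 Affymetrix arrays, each from the left lung lobe of a male mouse, with 3 mice in each of 8 groups. C3H/HeOuJ mice (OuJ) have a working Toll-like receptor 4 and C3H/HeJ mice (HeJ) carry a dominant negative Tlr4 and respond poorly to it. Each strain breathed air or ozone for 6, 24 or 48 h, and no dose of ozone is stated in the labels. The comparisons ask what ozone does to lung mRNA over time and what differs between the strains. In a whole lobe, fewer cells of a type and less RNA per cell cannot be told apart. Sample codes fall into 3 series, of which the first holds air and 6 h of both strains, the second OuJ at 24 and 48 h and the third HeJ at 24 and 48 h, so 24 or 48 h against air cannot be told apart from the code series. The lung markers Sftpc, Scgb1a1 and Ager had median signals of 36468, 30719 and 14914, and no lung epithelial marker was listed at 0. The Gapdh 5′ to 3′ signal ratio, which falls when RNA or cRNA is short, was 0.781 to 0.933 in OuJ air and 6 h arrays and 0.511 to 0.714 in HeJ air and 6 h arrays. At 24 and 48 h it was 0.794 to 1.03 in OuJ and 0.497 to 0.944 in HeJ. Its HeJ group means were 0.558 in air, 0.753 at 24 h and 0.593 at 48 h.

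The bases around the annotated transcription start show the pyrimidine run that many members carry and the members on which the results turn. Sequences are RefSeq promoter sequences (GRCm38.p6), which were matched for 36 of the 41 members. Each runs 5′ to 3′ from 30 bases before the annotated start through its first 15 bases, and capitals mark the longest run of C and T that opens with C where it has at least 6 letters. Rps10, Rpl35, Rps18 and Rpl38 are shown because their annotated start lies in a pyrimidine run.
Rps10: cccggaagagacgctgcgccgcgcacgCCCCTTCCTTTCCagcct
Rpl35: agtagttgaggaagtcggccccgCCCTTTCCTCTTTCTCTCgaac
Rps18: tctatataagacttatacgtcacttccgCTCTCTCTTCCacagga
Rpl38: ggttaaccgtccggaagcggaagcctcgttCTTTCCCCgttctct
Rps2, Rps9, Rps25, Rpsa and Rps28 follow because results below turn on them.
Rps2: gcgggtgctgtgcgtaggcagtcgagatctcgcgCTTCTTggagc
Rps9: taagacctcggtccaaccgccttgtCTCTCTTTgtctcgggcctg
Rps25: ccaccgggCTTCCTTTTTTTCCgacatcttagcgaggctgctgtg
Rpsa: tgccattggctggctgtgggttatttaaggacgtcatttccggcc
Rps28: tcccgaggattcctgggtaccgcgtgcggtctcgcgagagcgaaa
The stretches are at chr17:27635230-27635274 on the minus strand for Rps10, chr2:39005117-39005161 minus for Rpl35, chr17:33955651-33955695 minus for Rps18 and chr11:114668550-114668594 plus for Rpl38. Those of the other members are at chr17:24720033-24720077 plus for Rps2, chr7:3704011-3704055 plus for Rps9, chr9:44407684-44407728 plus for Rps25, chr9:120127736-120127780 plus for Rpsa and chr17:33824548-33824592 minus for Rps28. In Rps9 the run spans the annotated start, in Rps25 it lies before it, and in Rps2 it lies just after it. In Rpsa and Rps28 no run of that length is in this window, which may also mean that the annotated start is not the one used in lung.

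A pyrimidine run of at least 8 letters opening with C lay between 20 bases before and 30 bases after an annotated start in 21 of the 36 matched members (58.3%), against 17.0% of 27025 genes with a promoter in the table. The stricter form, C at the annotated start followed by at least 4 C or T, was present in 8 of the 36 (22.2%) and in 3.01% of all genes. On either strand of the 300 bases from 250 before to 50 after the start, CTTCCG, the core bound by ETS family factors, was in 26 members (72.2%) against 18.8% of genes. AAGATGG, the core bound by YY1, was in 6 members (16.7%) against 7.28%, and TATAAA was in 5 (13.9%) against 15.7%. The counts describe letters in a window, and binding was not measured.

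Most members were among the brightest signals of the lung. On each array 30 or 31 members lay in the top 2% of all probe sets. Mean signals ranged over the tested members from 198.9 for Rpl12, a large-subunit protein at the base of the ribosomal stalk, to 27194 for Rpl41, a very short large-subunit peptide. The next brightest were Rps29, at 23130, and Rps28, at 17224, both small-subunit proteins, and after Rpl12 the dimmest were Rps6 and then Rpl27a, at 272.1. Signals of different probe sets depend on the probes as well as on the mRNA, so this order is a property of the array, and how near the brightest signals lie to saturation is not stated. With a set cut at a mean log2(signal + 16) of 11, 33 members lay above it and 7 below (Rpl12, Rpl27a, Rpl37, Rpl39, Rps6, Rps25 and Rps27). Rpl37, at 10.48, was the brightest of the 7. The median SD over the 24 arrays was 0.118 in the 33 and 0.265 in the 7, with overlap between them.

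Members varied little over the 24 arrays. The standard deviation of log2(signal + 16) over the 24 arrays had a median of 0.133 over the 40 members and 0.224 over all 8008 genes tested. Among genes above 11 the medians were 0.118 for 33 members and 0.186 for 969 genes. These SDs include differences between groups. Within groups the median SD was 0.112 for the 40 members and 0.184 for all genes. Above 11 it was 0.108 for members and 0.145 for all genes. The 8 group means of a member spanned a median of 0.259, against 0.465 over all genes. Rps4x, the X-linked copy of a small-subunit protein, was the steadiest, with an SD of 0.0796, followed by Rpl6 (0.0851) and Rps18 (0.0852). Its group means ran from 12318 to 13054, within 0.0844 on the log2 scale. The largest SDs were those of the dim Rps27 (0.393), Rps6 (0.344) and Rpl12 (0.298). Taken over all 40 members, the mean log2 signal of an array lay between 12.44 and 12.62. Deviations from the group means moved together to a limited degree, with a median Pearson r of 0.267 over 528 pairs of bright members on 24 arrays, which also share each array's scaling.

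**Figure D1:**
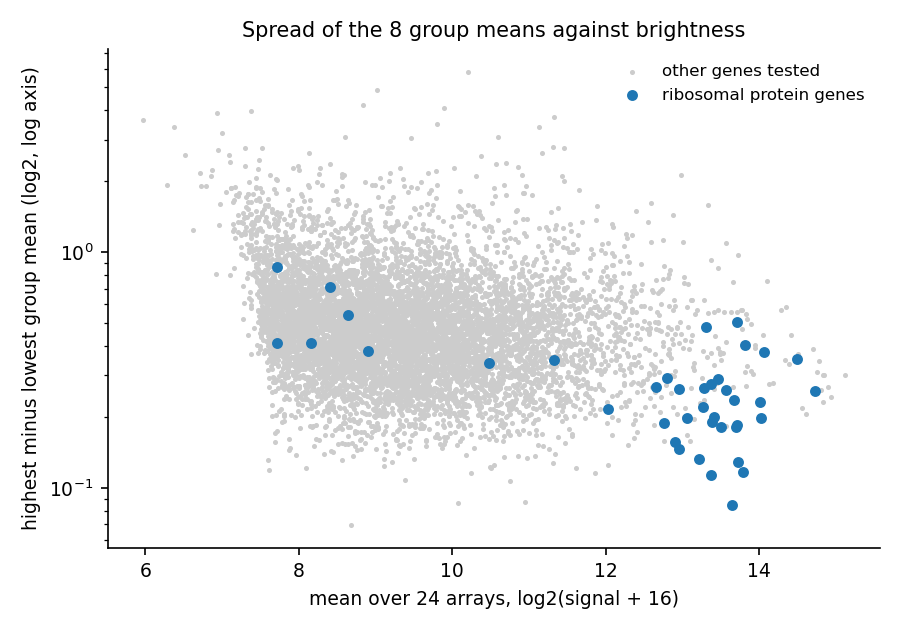
Highest minus lowest of the 8 group means (log2, on a log axis) against the mean log2(signal + 16) over 24 arrays, 1 point per gene, with the 40 ribosomal protein genes in blue and the other tested genes in grey. Most members lie at the bright end with small ranges (median 0.221 over the 33 above 11), and the largest range among those 33 is 0.506, that of Rps2.

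Rplp0, the stalk protein often used as a reference gene, illustrates the steadiness. Its signal was 9162.4, 9919.4 and 10410.0 in OuJ air, 10698.1, 9283.1 and 10540.2 at 6 h, 11115.6, 9399.6 and 8848.2 at 24 h and 10390.2, 10967.6 and 10639.2 at 48 h. In HeJ it was 9841.1, 8579.2 and 9989.0 in air, 8712.1, 10135.4 and 8665.4 at 6 h, 9689.4, 9828.8 and 10026.1 at 24 h and 10574.4, 9490.4 and 9932.3 at 48 h. Every ozone group overlapped the air group of its strain. The difference from air at 48 h was 0.12 ± 0.09 on the log2 scale in OuJ and 0.08 ± 0.09 in HeJ (estimate ± SE, n = 3 mice a group; adjusted p = 0.519 and 0.641 in limma). Rplp2, its stalk partner, had group means from 12385 to 14046 and passed no test.

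After 6 h of ozone no member passed in either strain. In limma fits across all 8008 genes with Benjamini-Hochberg adjustment, 0.137% of all genes passed an adjusted p of 0.05 in OuJ and 0.0375% in HeJ, so this time point had few calls of any kind. At an unadjusted p under 0.05 stood 2 members in OuJ, Rpl37a and Rpl41, both large-subunit proteins, and 0 in HeJ, against 10.5% and 9% of all genes. Rpl37a differed from OuJ air by 0.30 ± 0.14 (adjusted p = 0.44) and Rpl41 by 0.23 ± 0.11 (adjusted p = 0.444). Their signals overlapped those in air, and the Rpl41 difference was -0.0044 after quantile normalization. In HeJ the smallest p-values belonged to Rpsa (-0.20, adjusted p = 0.564), Rpl27a (-0.32, adjusted p = 0.616) and Rpl8 (0.17, adjusted p = 0.623).

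At 24 h each strain alone gave 0 calls among 40 members, where 6.57% of all genes passed in OuJ and 7.11% in HeJ (limma). At an unadjusted p under 0.05 stood 1 member in OuJ and 4 in HeJ, shares of 2.5% and 10% against 19.9% and 21.8% of all genes. The one in OuJ was Rps2, and the 4 in HeJ were Rps2, Rps24, Rps20 and Rps25, all of the small subunit. The median difference of the 40 members was 0.04 in OuJ and -0.05 in HeJ, against -0.03 and -0.02 for all genes. The sign of the OuJ median turned after quantile normalization, to -0.03. The Rps2 difference in HeJ passed in 1 of 6 fits that left out a single array, that without HeJ air replicate 2 (0.47, adjusted p = 0.023). Over these 6 fits the difference ran from 0.13 to 0.47, with adjusted p-values up to 0.471.

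At 48 h the count was 0 of 40 in OuJ, where 7.9% of all genes passed, and 1 of 40 in HeJ, where 12.1% did and 5.66% were higher (limma). The member that passed was Rps2, which rose in HeJ. At an unadjusted p under 0.05 stood 2 members in OuJ, Rps2 and Rps25, and 6 in HeJ, against 21.5% and 25.2% of all genes. In HeJ Rps9, Rps3, Rpl13a, Rps29 and Rps24 had estimates from -0.29 to -0.22 that did not pass. Rps3 is a small-subunit protein at the mRNA entry site that also takes part in DNA repair, and Rpl13a is known for a second role outside the ribosome in silencing inflammatory transcripts. The median of the 40 members was 0.0016 in OuJ and -0.06 in HeJ, and -0.02 and -0.00065 after quantile normalization. Between subunits the medians in HeJ were 0.0023 for 21 large-subunit and -0.08 for 19 small-subunit genes, a difference that was not tested.

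**Figure D2:**
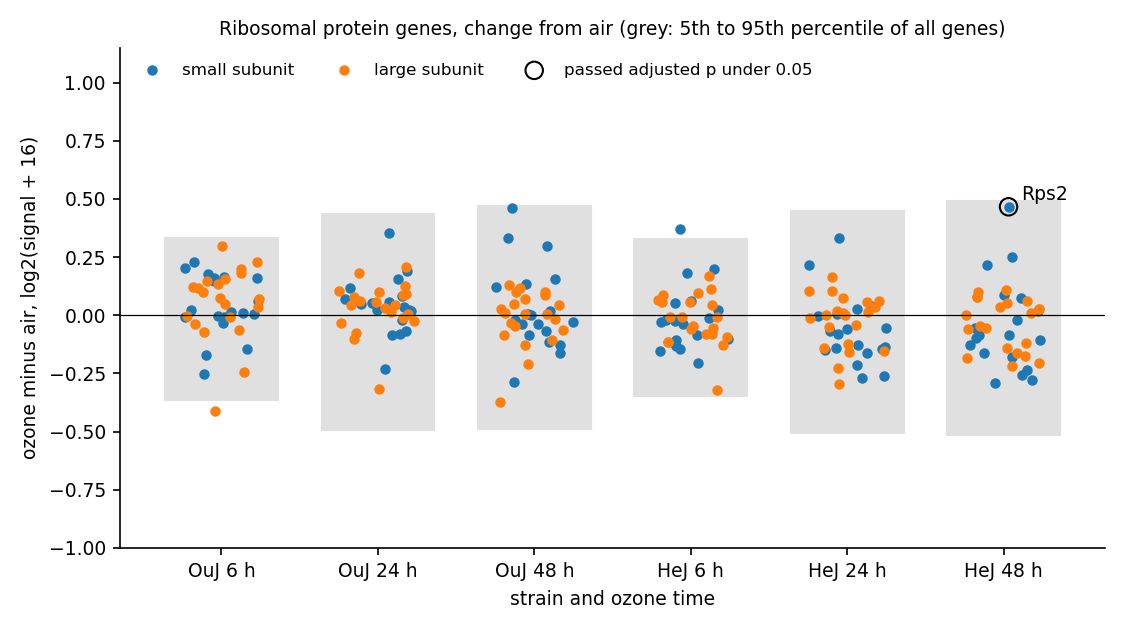
Difference from air in log2(signal + 16) of each of the 40 ribosomal protein genes at 6, 24 and 48 h of ozone in each strain (3 mice a group), with small-subunit genes in blue, large-subunit genes in orange and the 5th to 95th percentile of all 8008 genes as grey boxes. Points lie close to 0 in every column, and the circled Rps2 at 48 h in HeJ is the single member that passed.

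The precision of these tests allows bounds. In the 9 comparisons of 2 groups, the 95% confidence interval of 35 to 38 of the 40 members lay within a 1.5-fold change in either direction, which held for 62.1% to 75.5% of all genes. The members whose intervals reached further were mostly the dim ones, Rps27, Rps6 and Rpl12 above all. In the 6 comparisons of ozone with air, at most 1 member at a time lay outside the 5th to 95th percentile of all genes. The strain difference of the ozone response was called for 0 of 40 members at 6, 24 and 48 h, where 0.0125%, 0.0125% and 0% of all genes passed (limma). At an unadjusted p under 0.05 the counts were 3, 0 and 2 members, against 5.74%, 7.83% and 8.22% of all genes. The leading members were Rps19 at 6 h (-0.36, adjusted p = 0.826), Rps24 at 24 h (-0.30, adjusted p = 0.668) and Rps25 at 48 h (0.50, adjusted p = 0.364).

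The number of members whose 3 mice lay wholly outside those of the other group is given beside the share of all genes that did so. At 6 h 4 members lay wholly above and 1 wholly below air in OuJ (7.92% and 9.03% of all genes), and 0 above and 5 below in HeJ (5.38% and 7.03%). At 24 h the counts were 3 and 1 in OuJ (11.2% and 15%) and 0 and 5 in HeJ (10.7% and 13.6%). At 48 h they were 3 and 3 in OuJ (12.5% and 17.3%) and 2 and 5 in HeJ (13.7% and 17.1%). From 24 to 48 h they were 2 and 3 in OuJ (7.31% and 7.18%) and 1 and 4 in HeJ (12.3% and 11.6%).

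Rps2, a small-subunit protein near the mRNA entry tunnel, was the member with the clearest response. Its signal was 10333.3, 11902.7 and 11604.3 in OuJ air, 12952.1, 12996.2 and 12247.6 at 6 h, 15019.4, 14242.1 and 13923.9 at 24 h and 15335.2, 13966.0 and 12373.5 at 48 h. All 9 OuJ ozone mice were above all 3 OuJ air mice. In HeJ it was 8804.3, 13996.1 and 12578.8 in air, 13724.8, 13206.9 and 12514.0 at 6 h, 14773.3, 15440.5 and 13558.2 at 24 h and 17074.3, 15406.5 and 15553.5 at 48 h. HeJ air was spread widely by its lowest mouse, the 6 and 24 h groups overlapped it, and the 3 mice at 48 h were above all of it.

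In HeJ, Rps2 at 48 h was 0.47 ± 0.12 above air (1.38-fold, n = 3 mice a group, adjusted p = 0.0116 in limma). Without the lowest HeJ air mouse, replicate 1, the difference was 0.27 with an adjusted p of 0.0868, and without the highest mouse at 48 h, also replicate 1, it was 0.42 with an adjusted p of 0.0551. In the fit of these 2 groups alone the adjusted p was 0.0743. The OuJ differences were 0.35 ± 0.12 at 24 h (adjusted p = 0.0758) and 0.30 ± 0.12 at 48 h (adjusted p = 0.132). Averaged over the strains, a comparison added after the data were seen, Rps2 rose by 0.34 ± 0.08 at 24 h (1.27-fold, adjusted p = 0.00643) and by 0.38 ± 0.08 at 48 h (1.30-fold, adjusted p = 0.00197). These averaged differences passed in all 23 alternative settings, with estimates from 0.24 to 0.45 at 24 h and from 0.28 to 0.45 at 48 h. The background was high, since 16.4% of all genes passed at 24 h (7.11% higher, 9.27% lower) and 20.2% at 48 h (8.85% higher, 11.4% lower), against 1 higher and 1 lower of 40 members each time. At 6 h the average over strains called 0 of 40 members and 1.17% of all genes, and 3 members (Rps26, Rps2 and Rpl37a) had an unadjusted p under 0.05, as did 13.3% of all genes. At 24 and 48 h that share was 29.1% and 32.3%, with 3 and 6 members. Rps2 was read by 1 probe set of the x_at kind, so no second probe set bears on it.

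Other features of the lobes moved at the same times. Of 7 T and NK cell markers 6 fell in HeJ at 48 h, their summed signal going from 2090 to 2700 in air to 807.1 to 1171 at 48 h, and of 6 B cell markers 5 fell, from 7206 to 11535 down to 4309 to 8210. None of these markers was listed at 0. In the same comparison 3 of 8 macrophage markers rose and 0 fell, and 2 of 2 red cell markers fell. Of 6 neutrophil markers 0 passed, of 9 cardiac markers 1 fell, and of 10 lung epithelial markers 1 rose. Of 16 heat shock genes 12 rose there, from a summed 27160 to 31288 up to 56060 to 65886. Of all genes 12.1% passed in that comparison. In OuJ at 48 h, where 7.9% of all genes passed, 15 of the heat shock genes rose. There 4 of the B cell markers and 1 of the T and NK cell markers fell. The part of these changes in the Rps2 result was not tested.

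The second call in each averaged comparison was a decrease. Rps9, a small-subunit protein needed for accurate decoding, had signals of 7550.2, 7279.8 and 6800.5 in OuJ air and 6127.7, 6719.5 and 6494.6 at 48 h, and of 7773.0, 7813.2 and 7959.2 in HeJ air and 6468.6, 6048.1 and 6716.7 at 48 h. In both strains the 3 mice at 48 h were below the 3 in air. Averaged over strains Rps9 fell by 0.23 on the log2 scale at 48 h (SE 0.07, n = 6 mice a side, adjusted p = 0.0211 in limma). Leaving out OuJ air replicate 1, OuJ 48 h replicate 1 or HeJ 48 h replicate 2 took the adjusted p to 0.0519, 0.0552 and 0.057. At 24 h 1 mouse of each strain stood far above the others, at 8660.2 in OuJ and 8702.6 in HeJ, and the averaged difference was -0.02 ± 0.07.

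**Figure D3:**
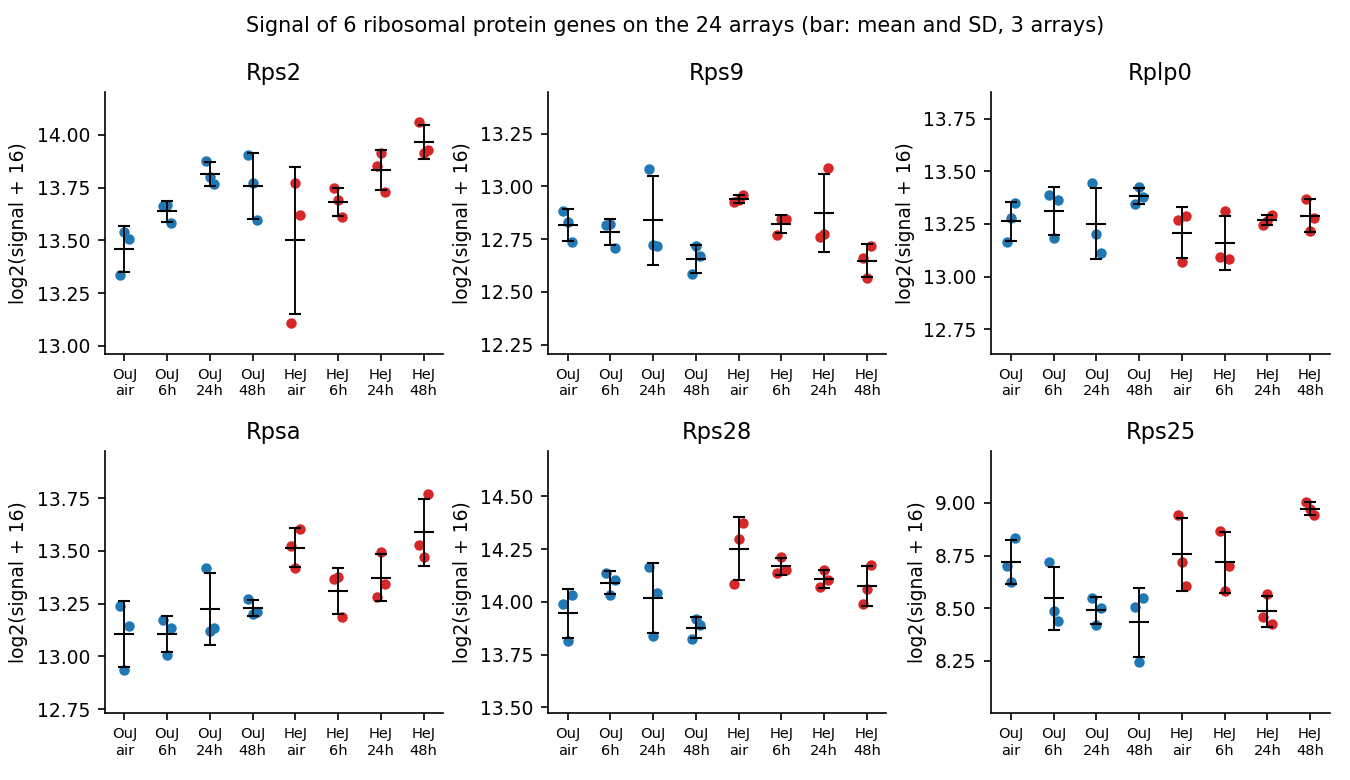
log2(signal + 16) of Rps2, Rps9, Rplp0, Rpsa, Rps28 and Rps25 in the 8 groups, OuJ in blue and HeJ in red, 1 point per mouse with the group mean and SD in black (n = 3); every panel spans the same log2 range. Rps2 is higher in ozone groups, Rps9 is lower at 48 h, Rplp0 is level and Rpsa is higher in HeJ.

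Rps25, a small-subunit protein known for its part in internal ribosome entry, was dim on this array and had different signs at different times. Its signal in HeJ was 475.6, 405.9 and 373.1 in air, 335.5, 364.0 and 328.1 at 24 h and 496.8, 485.6 and 476.4 at 48 h. All 3 mice at 24 h were below air and all 3 at 48 h were above it. In OuJ it was 400.6, 379.1 and 439.4 in air, 358.4, 326.5 and 346.0 at 24 h and 347.6, 287.7 and 358.3 at 48 h, so both later groups were below air.

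From 24 to 48 h Rps25 rose by 0.49 ± 0.12 in HeJ (adjusted p = 0.0204), the single member among 40 in a comparison that called 5.46% of all genes and 2.62% as higher (limma). The call was lost without any of 5 of the 6 mice, with adjusted p-values from 0.0526 to 0.0856, and in the fit of these 2 groups alone (adjusted p = 0.0673). Without the 4 arrays whose codes carry a suffix the difference was 0.40 with an adjusted p of 0.618. The mean Gapdh 5′ to 3′ ratio was 0.753 in HeJ at 24 h and 0.593 at 48 h, and its part in this difference was not tested. In OuJ 0 members passed from 24 to 48 h, where 0.15% of all genes did, and 0 had an unadjusted p under 0.05, against 7.98% of all genes. In HeJ 3 members and 20.8% of all genes did so. Averaged over strains at 24 h, Rps25 fell by 0.25 on the log2 scale (SE 0.08, adjusted p = 0.0429), a call kept in 9 of 23 alternative settings.

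The strain comparison in air called 0 of 40 members, where 0.774% of all genes passed (limma). At an unadjusted p under 0.05 stood 9 members, all higher in HeJ, which is 22.5% of members against 14.2% of all genes. The median difference of the 40 members was 0.066, against 0.027 for all genes, and it depended on the scaling. It was 0.0076 against 0.036 after quantile normalization and 0.115 against 0.076 with median centring. The leading members were Rpsa, Rps28 and Rps14 (0.21, adjusted p = 0.206). Rpsa, a small-subunit protein that also serves as a laminin receptor at the cell surface, had signals of 9653.5, 7819.3 and 9042.4 in OuJ air and 11752.2, 10925.6 and 12427.9 in HeJ air. All 3 HeJ mice were above all 3 OuJ mice. The difference was 0.41 ± 0.10 with an adjusted p of 0.0571, and 0.0482 with the replicate number as a block. Rps28 was 0.31 ± 0.09 higher (adjusted p = 0.0942), and without HeJ air replicate 1 it passed (0.39, adjusted p = 0.0492). HeJ signals lay wholly above OuJ signals for 6 of 40 members and 12.5% of all genes, and wholly below for 2 members and 8.82%.

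Rpsa was also measured after each ozone exposure. At 6 h the signals were 9220.0, 8217.4 and 8986.0 in OuJ and 10545.7, 10625.5 and 9300.4 in HeJ. At 24 h they were 10941.5, 8877.1 and 8965.7 in OuJ and 9938.5, 11531.1 and 10376.2 in HeJ, and at 48 h 9872.3, 9402.3 and 9457.7 in OuJ and 11784.7, 11333.8 and 13943.2 in HeJ. Every HeJ group was above its OuJ partner mouse for mouse, except at 24 h, where the groups overlapped. Averaged over air and 6 h, which share a code series, Rpsa was 0.31 ± 0.07 higher in HeJ (1.24-fold, adjusted p = 0.0127), the single member in a comparison that called 6.08% of all genes and 3.3% as higher, with 6 members and 21.4% of all genes at an unadjusted p under 0.05. Rps24 also passed without OuJ air replicate 3 (0.27, adjusted p = 0.0443), and Rps28 without HeJ air replicate 1 (0.23, adjusted p = 0.0282). Averaged over the 4 exposures it was 0.28 ± 0.05 higher (1.21-fold, n = 12 mice a strain, adjusted p = 0.000469 in limma), and both averages, added after the data were seen, passed in all of their 24 and 35 alternative settings.

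At 24 and 48 h the strains lie in different code series, so those strain differences, and the strain difference of the response at these times, cannot be told apart from the series. Averaged over the 4 exposures, 4 of 40 members passed, 3 higher and 1 lower in HeJ, where 19.8% of all genes passed, 11.9% higher and 7.88% lower. Of these 4, Rpsa alone also passed in the average over air and 6 h. The lower one, Rps6, met the filter on low values only through OuJ arrays. At an unadjusted p under 0.05 stood 10 members and 32.7% of all genes. Besides Rpsa, Rps28, a small-subunit protein at the mRNA exit, was higher by 0.17 ± 0.04 (adjusted p = 0.00899). Its signals in air were 16257.5, 14371.2 and 16748.3 in OuJ and 17363.1, 20109.4 and 21253.1 in HeJ, without overlap. Its other probe sets also passed, with differences of 0.14 (adjusted p = 0.0316) and 0.15 (adjusted p = 0.0162), so the 3 probe sets of Rps28 gave the same direction. Rps25 was 0.18 ± 0.06 higher (adjusted p = 0.0304), a call lost on leaving out any of 6 arrays (OuJ air replicate 2, OuJ 6 h replicate 3, OuJ 48 h replicate 2, HeJ air replicate 1, HeJ 6 h replicate 1 and HeJ 24 h replicate 2), with adjusted p-values from 0.0509 to 0.0598. By exposure the Rps25 difference was 0.04 in air, 0.17 at 6 h, -0.0048 at 24 h and 0.54 at 48 h, so most of the average came from 48 h. Without the 4 arrays with suffixed codes the adjusted p of Rps28 was 0.0536.

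The lower call was Rps6, the small-subunit protein phosphorylated by S6 kinases downstream of mTORC1 (adjusted p = 0.0136). Its probe set was near the floor of 218.3, which it exceeded on 6 of 12 OuJ and 2 of 12 HeJ arrays. It met the filter of at least 3 arrays only through OuJ, where it was higher. The call is therefore not read as a strain difference. The signals were 210.6, 195.2 and 227.9 in OuJ air and 189.3, 166.6 and 124.1 in HeJ air, and no size is given for a difference at this level. The strain results stand beside the 5′ to 3′ ratios given above, which were lower in HeJ, with overlap at 24 h. The actin ratio was 0.759 to 0.911 in OuJ and 0.571 to 0.694 in HeJ arrays of air and 6 h. The part of this in the strain differences was not tested, and no allele difference under a probe was examined.

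Different probe sets of a gene did not always give the same answer, which limits what a single probe set can show. Of 16 members with several kept probe sets, 8 had the same sign in all of them for HeJ at 48 h against air and 5 for OuJ at 48 h. Rpl22, a large-subunit protein with a role in T cell development, is the clearest case. Its brighter probe set differed from air by 0.07 ± 0.12 at 48 h averaged over strains (adjusted p = 0.729), while its s_at probe set fell by 0.38 on the log2 scale (SE 0.08, adjusted p = 0.0014 over all probe sets). Rpl35 and Rps10 were singled out after their values were seen. Rpl35, a large-subunit protein near the exit tunnel, had 5 kept probe sets, of which 2 of the x_at kind were lower in HeJ over the 4 exposures, by 0.26 and 0.14 (adjusted p = 0.00132 and 0.045), while its brightest differed by 0.03. Rps10 had an x_at probe set higher in HeJ by 0.21 (adjusted p = 0.0158), while its brightest differed by -0.08 (adjusted p = 0.37).

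Several well-known members passed no comparison as fitted. Rps19 and Rpl11, both known from Diamond-Blackfan anaemia, and Rps4x had group means within 7247 to 8726, 3893 to 4547 and 12318 to 13054. Rps3 had group means of 12047 to 14223, and Rpl13a of 10348 to 12688. Rpl13a at 48 h averaged over strains passed with array weights (-0.16, adjusted p = 0.041) and was 0.015 with the mean of its probe sets.

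Of 54 ribosome biogenesis genes tested, which encode nucleolar processing factors and RNA polymerase I subunits, 10 rose and 0 fell in HeJ at 48 h. This was 18.5%, against 12.1% of all genes in either direction and 5.66% higher. Their median was 0.21, against -0.03 for all genes. Heatr1, a factor for rRNA transcription and processing, was higher by 1.01 ± 0.11 (adjusted p = 6.37e-06), Wdr36, of the small-subunit processome, by 1.77 ± 0.36 (adjusted p = 0.00251) and Gar1, of the box H/ACA particle, by 0.61 ± 0.13 (adjusted p = 0.00377). In OuJ at 48 h 2 rose and 1 fell (5.56%, against 7.9% of all genes), namely Gnl3, the nucleolar protein nucleostemin, by 0.45, Nhp2 by 0.42 and the helicase Ddx52, which was lower by 0.54. At 24 h 2 rose in OuJ (Mphosph10 and Gnl3) and 3 in HeJ (Wdr36, Heatr1 and Nop56), with 0 lower. These shares of 3.70% and 5.56% stood beside 6.57% and 7.11% of all genes in either direction. Of the 8008 genes, 253 were higher in OuJ and 252 in HeJ. The difference between the strains in these counts was not tested.

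**Figure D4:**
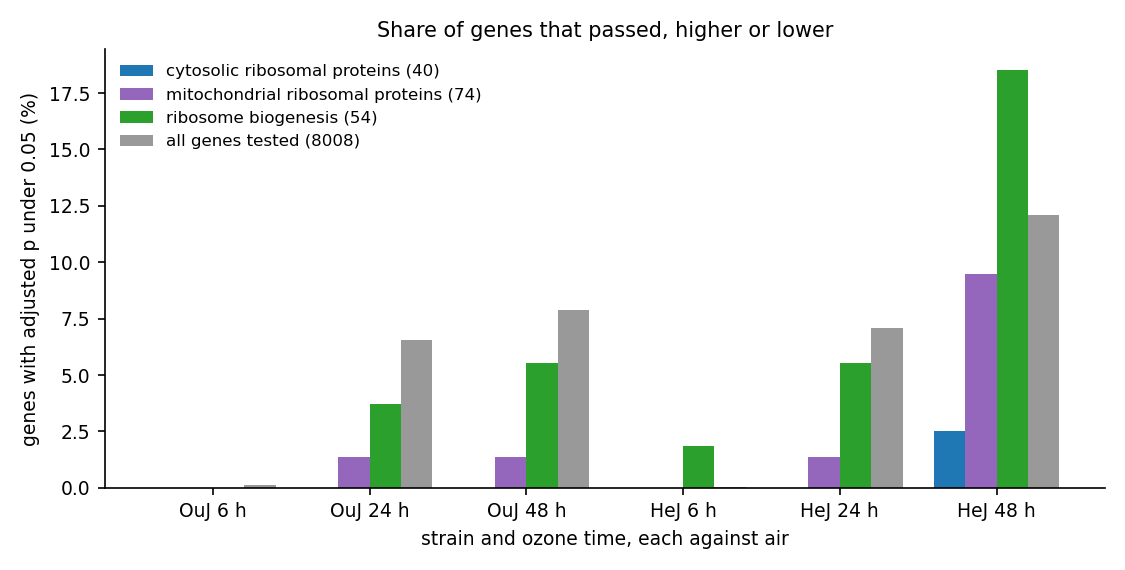
Percent of genes with an adjusted p under 0.05 against air in each strain and at each ozone time, for cytosolic ribosomal protein genes, mitochondrial ribosomal protein genes, ribosome biogenesis genes and all genes tested (gene counts in brackets). The blue bar is at 0 in every comparison but HeJ at 48 h, where it is 2.5% against 12.1% for all genes.

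Mitochondrial ribosomal proteins, which serve a separate ribosome for the mitochondrial genome, gave 7 higher and 0 lower of 74 in HeJ at 48 h. This was 9.46%, against 12.1% of all genes in either direction and 5.66% higher. The leading ones were Mrpl52 (0.59 ± 0.14, adjusted p = 0.00903 in limma), Mrpl20 (0.55) and Mrpl51 (0.49). In OuJ Mrps6 alone rose, by 0.76 at 24 h and by 0.93 at 48 h. This was 1.35% of the 74 at each time, against 6.57% and 7.9% of all genes in either direction. Of the 8008 genes, 253 and 296 were higher. Of 32 initiation factors 6 rose and 1 fell in HeJ at 48 h (21.9%, against 12.1% of all genes), among them Eif5a (0.42 ± 0.08, adjusted p = 0.00207), Eif1ax (0.46) and the cap-binding protein Eif4e (0.40). In OuJ at 48 h Eif4e alone rose (0.37 ± 0.11, adjusted p = 0.0298 in limma). This was 3.1% of the 32 against 7.9% of all genes in either direction. Eif4e was also lower in HeJ than in OuJ air, by 0.47 on the log2 scale (adjusted p = 0.0319 in limma). It was the single call among the 32 there (3.1%, against 0.774% of all genes).

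Of 12 elongation factors and other genes listed as TOP mRNAs, whose 5′ motif was not examined here, 1 rose in HeJ at 48 h. It was the histone chaperone Nap1l1 (0.64 ± 0.09, adjusted p = 4.58e-05 in limma). This share of 8.33% stood against 12.1% of all genes in either direction and 5.66% higher. In OuJ at 48 h 0 passed, against 7.9% of all genes. An unadjusted p under 0.05 was found for 1 in OuJ and 5 in HeJ, against 21.5% and 25.2% of all genes. From 24 to 48 h in HeJ 1 of the 12 rose and 1 fell (16.7%, against 5.46% of all genes). The one that fell was Eef2, the translocation factor, by 0.31 on the log2 scale (adjusted p = 0.0262 in limma). Of 18 genes of mTORC1 and S6 kinase signalling 0 passed against air at 48 h in either strain (limma), against 7.9% of all genes in OuJ and 12.1% in HeJ. Among these 18, 2 in OuJ and 5 in HeJ had an unadjusted p under 0.05, as did 21.5% and 25.2% of all genes. From 24 to 48 h in HeJ the mTORC1 inhibitor Sesn2 fell by 0.85 (adjusted p = 0.0254 in limma). It was the single call among the 18 (5.56%, against 5.46% of all genes). Of 5 relatives outside the name rule, Rps27l, a p53-responsive copy of Rps27, rose in HeJ from 24 to 48 h by 0.51 (adjusted p = 0.0392 in limma). This was 1 of 5 (20%), against 5.46% of all genes and 2.62% higher. Rps4l was 0.82 higher in HeJ over the 4 exposures (adjusted p = 0.000245 in limma). That was also 1 of 5 (20%), against 19.8% of all genes and 11.9% higher.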

How the data were processed

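Intensity values (linear, scaled per array) were used as the authors deposited them in the series matrix, made with GCOS 1.4 per the submitters' processing notes. The trimmed mean of every array was about 500.2, so levels are relative to the array. Probe sets were kept where at least 3 arrays exceeded 218.3, the median signal, and 8008 genes were tested at 1 probe set each. log2(signal + 16) was fitted in limma 3.58.1 (R 4.3.3) with 1 mean for each of 8 groups over all 24 arrays, eBayes with an intensity trend, two-sided tests and Benjamini-Hochberg adjustment. The number of arrays, 3 a group, limits the precision. The labels call the replicates biological; p-values measure the spread between these mice.

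Members and lists were chosen with earlier results of these data known. Promoter letters were read from the RefSeq table. Named members are up to 6 per direction that passed a comparison by smallest p (or the 3 smallest p), the 3 brightest, dimmest, most and least variable, and a fixed set of well-known members. Of other lists, up to 3 genes that passed are named. Same-numbered arrays had deviations correlated at -0.078 to 0.201, so replicate numbers were not treated as pairs.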

Additional observations from a re-analysis of the deposited data

How the results depend on the processing

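Arrays number 3 a group and a single probe set stands for each gene, which limits small differences. Alternatives were scaling, pseudocount, filter, probe set choice, fit samples, trend, array weights, code suffixes, replicate block and single arrays. The member count in HeJ at 48 h against air went from 1 to 2 with quantile normalization, the mean of probe sets, array weights or all probe sets, and 0 to 1 on leaving out single arrays. For HeJ 48 h against 24 h it was 0 in the fits of the compared groups, of the code series and without suffixed codes, and 0 to 1 without single arrays. For HeJ 24 h against air it was 0 to 1 without single arrays. For the strains in air it was 1 with the mean of probe sets, the replicate block or all probe sets, 2 with array weights, and 0 to 1 without single arrays. For the strains over 4 exposures it was 7 with the mean of probe sets and 3 to 5 without single arrays, and over air and 6 h 2 with array weights and 1 to 2 without single arrays. For OuJ at 48 h it was 1 with all probe sets. Averaged over strains, the count at 24 h was 1 with median centring, no filter, the compared groups alone or without suffixed codes, and 1 to 2 without single arrays; at 48 h it was 4 with quantile normalization and 1 to 3 without single arrays. Rpl41 at 6 h in OuJ reversed to -0.0044 with quantile normalization, and Rpl13a at 48 h over strains reversed to 0.015 with the mean of probe sets, though it passed with array weights (-0.16, adjusted p = 0.041). The cause was not tested. Replicate numbers were not treated as pairs here. Of 27 correlations between same-numbered arrays 5 exceeded 0.1, and in 16 of 27 pairs over 9 comparisons the best match was the same number. Whether arrays of the same number share a structure was not tested. The replicate block changed no other count.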

Other observations

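The 18S rRNA control probe set, which reads ribosomal RNA left in the labelled material, had signals of 117.8 to 422.4 over the 24 arrays. Its group means ran from 230.8 (SD 49.8, n = 3) in HeJ at 48 h to 362.9 (SD 52.1) in OuJ at 24 h. The widest group was HeJ air, with 117.8 to 352.1.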
